A study of Mus musculus with 11 samples.

Results

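The genes described here belong to the tumour necrosis factor (TNF) family, the NF-kB pathway and the control of cell death. They were chosen by name: every gene of the panel whose symbol starts with Tnf, Traf, Birc, Bcl, Casp, Nfkb, Ikbk, Ripk, Map3k or Pim, or is Rel, Rela, Relb, Fas, Fasl, Bax, Bid or Mcl1, apart from Birc5 and Nfkbia. This rule found 36 of the 754 genes in the table, and no measured value entered it. Results are given for 35 of them, of which 25 were above the floor of 30 normalized counts in at least 1 mouse and 10 were at the floor in all 11 mice. In the whole table, 445 of 754 genes were above the floor in at least 1 mouse.

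Macrophages were sorted as CD11b+F4/80+ cells from the peritoneal cavity of female C57BI/6 mice aged 6 to 8 weeks, which had received PBS or IL-4 complex (IL-4c) intraperitoneally on days 0 and 2, and the cells were collected on day 4. IL-4c is IL-4 bound to an anti-IL-4 antibody, which prolongs the action of the cytokine. The 4 groups were PBS-treated Rα+/+ (wild-type; mice 1 and 2), PBS-treated RαTd/Td (mice 3 and 4), IL-4c-treated Rα+/+ (mice 5, 6 and 7) and IL-4c-treated RαTd/Td (mice 9, 10, 11 and 12). In RαTd/Td mice the gene for RELMα, Retnla, is replaced on both alleles by a TdTomato reporter in all tissues, so the deletion is not limited to macrophages. The methods describe 1 run of the Nanostring panel, which counts transcripts with 1 barcoded probe for each gene. Because probes differ in efficiency, no level is compared between genes below.

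TNF superfamily ligands bind receptors on the cell surface, and these recruit TRAF adaptors, the ubiquitin ligases of the BIRC family and RIP kinases. This complex either activates the IkB kinases, which release NF-kB to the nucleus, or, when survival signals fail, activates caspases. NF-kB induces many of its own brakes, among them IkB proteins and the enzyme A20, and it induces survival genes such as Birc3. Peritoneal macrophages use these pathways to answer microbial products, while IL-4 signals through STAT6 and drives an alternative state of activation.

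Counts above the floor summed to between 268858 and 574505 per mouse, and the lowest value measured in a mouse ranged from 30.5 to 56.3 normalized counts. The 2 PBS-treated RαTd/Td mice had the lowest sums and the highest lower limits. The geometric mean of the positive control probes, which are not normalized, was 853 to 1021 counts in PBS-treated and 301 to 624 counts in IL-4c-treated mice, and its part in the results was not tested. Retnla was at 4631 and 4141 normalized counts in PBS-treated Rα+/+ mice, between 115675 and 171588 in IL-4c-treated Rα+/+ mice, and at the floor in all 6 RαTd/Td mice. All 9 macrophage markers on the panel were detected, with a sum between 24020 and 30101 normalized counts, but they did not move together. After IL-4c, Csf1r, Cd14, Mertk and Fcgr1 fell in both genotypes (log2 changes of -0.97, -2.09, -1.08 and -2.62 in Rα+/+ and -0.98, -1.63, -0.93 and -2.36 in RαTd/Td mice), while Adgre1 rose in Rα+/+ and Cd68 and Mrc1 in RαTd/Td mice. Fcgr1 was at the floor in all IL-4c-treated mice but mouse 12, at 64.3, so the size of its fall depends on the floor. Cd14 and Mertk were higher in RαTd/Td than in Rα+/+ mice after IL-4c, by 0.97 and 0.78 (limma adjusted p = 0.0421 for both). Neither difference kept an adjusted p of 0.05 or less without mouse 12, where 0 genes of the panel were higher. The same held with no gene filter, with every lower limit raised to 56.3 and with the IL-4c-treated mice fitted alone. It also held with the methods' t-test after adjustment. Without mouse 5 or 7, 1 gene remained higher, so Cd14, Mertk or both were lost. The part of these markers in the results below was not tested. Of 9 neutrophil or monocyte markers, 6 were detected, with sums of 1220 and 1300 in PBS-treated Rα+/+, 1373 and 1538 in PBS-treated RαTd/Td, 333 to 491 in IL-4c-treated Rα+/+ and 464 to 1372 in IL-4c-treated RαTd/Td mice. The others on this list, Cxcr2, Mpo and Elane, were at the floor in every mouse. The B cell marker Ms4a1 was between 105 and 242 in PBS-treated mice and at the floor after IL-4c in all mice but mouse 12, at 63.1, while the other B cell marker on the panel, Fcer2a, was at the floor throughout. The T or NK cell markers (2 genes) and dendritic cell markers (5 genes) were not detected in any mouse, and of 9 eosinophil or mast cell markers Cpa3 alone was detected, in mouse 1, at 48.2. The neutrophil or monocyte sum and Ms4a1 were lower after IL-4c in both genotypes along with the genes below, Ms4a1 by -2.32 and -2.54 on the log2 scale in Rα+/+ and RαTd/Td mice, and their part in these changes was not tested. In sorted, lysed cells, fewer cells of a type and less RNA per cell cannot be told apart.

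Log2 values (with 1 added) of the 445 detected genes were fitted with limma, and a gene with a Benjamini-Hochberg adjusted p of 0.05 or less over all 445 genes is referred to as called. Fold changes are on this scale, where the added 1 understates the change of low genes. The floor may understate or overstate it, since 30 stands for any level below a lowest measured value of 30.5 to 56.3, depending on the mouse. After IL-4c, 10 of the 25 detected genes fell in Rα+/+ mice and 9 fell in RαTd/Td mice. Over all 445 genes, 32.4% were called lower and 13.9% higher in Rα+/+ mice, and 36.6% and 15.3% in RαTd/Td mice. The shares of the TNF, NF-kB and cell death genes that fell, 40.0% and 36.0%, were thus near the background. Their median log2 change was -0.34 in Rα+/+ and -0.44 in RαTd/Td mice, beside -0.18 and -0.23 over all genes. The 7 genes that fell in both genotypes were Nfkbiz, Tnfrsf1b, Bcl10, Trafd1, Birc3, Pim2 and Tnfrsf1a. All IL-4c-treated mice were below all PBS-treated mice of the same genotype for 13 of the 25 genes in Rα+/+ and 15 in RαTd/Td mice, beside 42.9% and 43.6% of all genes. Both IL-4c comparisons use different mice throughout.

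The normalization to housekeeping genes left the median gene below 0 after IL-4c. With quantile normalization that median moved to 0 in both genotypes, and with a median centring, in which the median gene of every mouse is made equal, it moved to 0.12 in Rα+/+ and 0.03 in RαTd/Td mice. The split between higher and lower calls moved with it. With centring, 2 of the 25 genes rose and 6 fell in Rα+/+ mice, and 1 rose and 5 fell in RαTd/Td mice. With quantile normalization, 2 rose and 8 fell in Rα+/+ mice, and 0 rose and 4 fell in RαTd/Td mice. The genes called higher were Bcl2 and Ripk2 (centring) or Bcl2 and Tnfrsf14 (quantile normalization) in Rα+/+ mice, and Map3k4 (centring) in RαTd/Td mice. Map3k4 was at the floor in PBS-treated RαTd/Td mice 3 and 4, whose lowest measured values were 56.1 and 56.3. In IL-4c-treated RαTd/Td mice it was between 30.5 and 40.3, below both, so no rise of it was measured. Nfkbiz, Tnfrsf1b and Birc3 kept their calls in both genotypes under these rescalings and under each of the other 21 alternatives, including each mouse left out. Where a PBS-treated mouse is left out, the one that remains in its group is assumed to vary like the mice of the other groups.

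**Figure D1:**
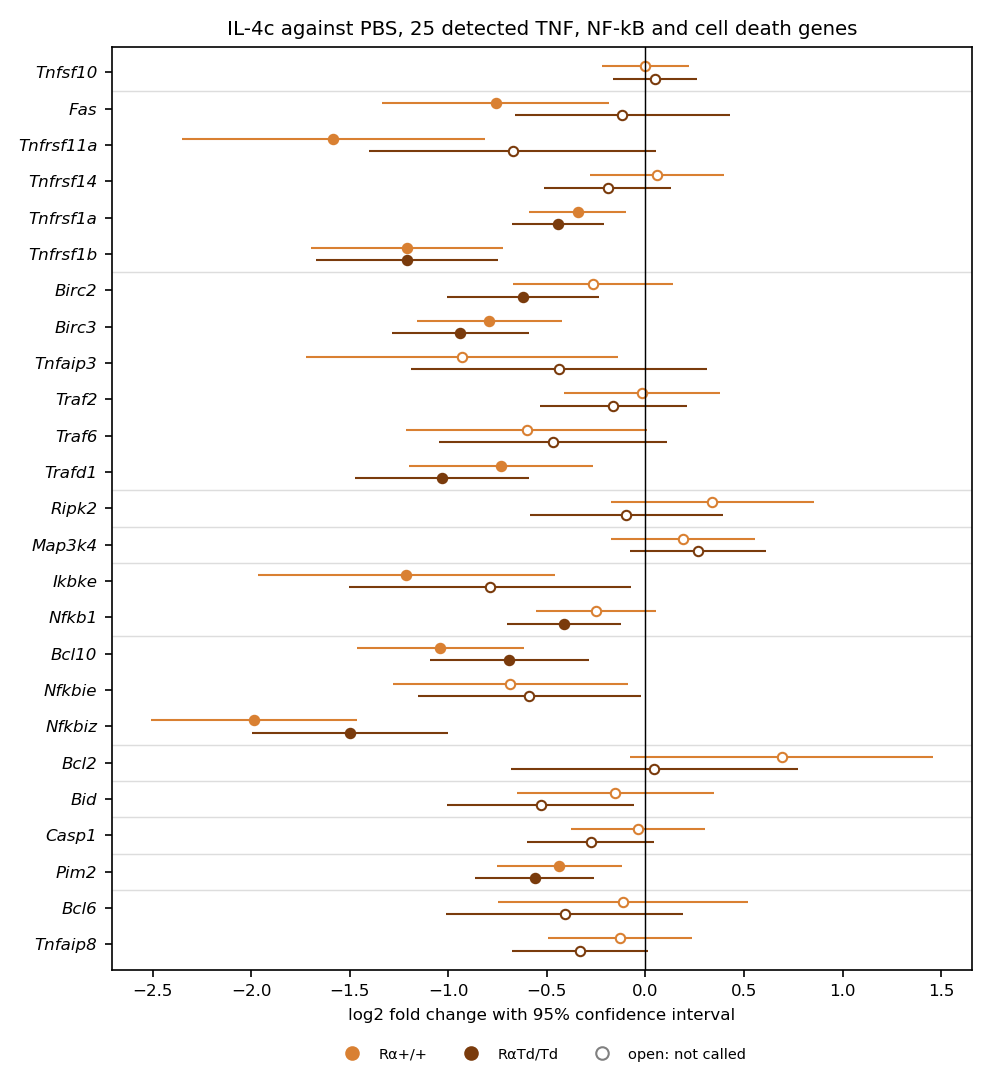
Log2 fold change of IL-4c over PBS (x axis) for the 25 detected TNF, NF-kB and cell death genes (y axis, grouped by role with grey lines) in Rα+/+ (orange) and RαTd/Td (brown) mice, with 95% confidence intervals from limma and filled points for called genes. The 7 genes filled in both colours all lie to the left of 0, with Nfkbiz farthest, at -1.99 and -1.50.

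Of the 4 TNF superfamily ligands on the panel, Tnf, Tnfsf4 and Tnfsf9 were at the floor in all 11 mice. Tnfsf10, which encodes the death ligand TRAIL, was above it in mouse 11 alone, at 34.5 normalized counts, just above the lowest value measured in that mouse (32.3). A value at the floor says only that a transcript did not exceed the authors' limit. Negative control probes reached at most 13 counts, so a ligand signal between these and the floor cannot be told from none in this table.

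Among 9 TNF receptor superfamily genes, Tnfrsf4, Tnfrsf8, Tnfrsf9 and Tnfrsf12a were at the floor in every mouse, and 5 were detected. After IL-4c, 4 of these 5 fell in Rα+/+ mice (Tnfrsf1a, Tnfrsf1b, Tnfrsf11a and Fas) and 2 fell in RαTd/Td mice (Tnfrsf1a and Tnfrsf1b), beside 32.4% and 36.6% of all genes. With median centring, Tnfrsf1b and Tnfrsf11a remained called in Rα+/+ mice and Tnfrsf1b in RαTd/Td mice.

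Tnfrsf1b encodes TNF receptor 2, which binds membrane TNF and signals through TRAF2 without a death domain. It was at 463 and 341 normalized counts in PBS-treated Rα+/+, 523 and 516 in PBS-treated RαTd/Td, 183, 164 and 168 in IL-4c-treated Rα+/+, and 189, 178, 260 and 287 in IL-4c-treated RαTd/Td mice. Every IL-4c-treated mouse was below every PBS-treated mouse. The log2 change was -1.21 ± 0.22 (SE) in Rα+/+ mice (2.31-fold lower, limma adjusted p = 0.00150) and -1.21 ± 0.21 in RαTd/Td mice (2.32-fold lower, adjusted p = 0.00102).

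Tnfrsf1a encodes TNF receptor 1, the death domain receptor for soluble TNF. Its values were 843 and 778 in PBS-treated Rα+/+, 947 and 920.2 in PBS-treated RαTd/Td, 634, 605 and 675 in IL-4c-treated Rα+/+, and 696, 732, 620 and 705 in IL-4c-treated RαTd/Td mice. Again no IL-4c-treated mouse reached a PBS-treated one, but the change was small, at -0.34 ± 0.11 in Rα+/+ (adjusted p = 0.0261) and -0.44 ± 0.10 in RαTd/Td mice (adjusted p = 0.00569). Both calls ended with either rescaling, where the change was -0.05 with centring (adjusted p = 0.787) and -0.06 with quantile normalization (0.746) in Rα+/+ mice, and -0.18 (0.230) and -0.16 (0.299) in RαTd/Td mice. The call in Rα+/+ mice was also lost without mouse 1, 5 or 6, with changes of -0.29, -0.34 and -0.31 and adjusted p-values between 0.0637 and 0.0820.

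Tnfrsf11a encodes RANK, the receptor that drives osteoclast formation from macrophage precursors. It averaged 110.4 ± 7.6 (SD, n = 2) and 91.8 ± 3.0 (n = 2) in PBS-treated Rα+/+ and RαTd/Td mice, and fell in Rα+/+ mice given IL-4c, of which 2 were at the floor and 1 was at 52.2 (log2 change -1.58 ± 0.34, adjusted p = 0.00420). With a single floor of 56.3 for all mice this change was -0.96 (adjusted p = 0.0123), and with the methods' t-test after adjustment it was not called. In RαTd/Td mice given IL-4c it ranged from 45.3 to 98.7, with a change of -0.67 ± 0.33 that was not called (adjusted p = 0.108). Fas, the death receptor for Fas ligand, was at 65.9 and 66.7 in PBS-treated Rα+/+ mice and at 46.9, 41.3 and the floor after IL-4c (-0.76 ± 0.26, adjusted p = 0.0328). In RαTd/Td mice Fas was at 71.0 and 60.1 after PBS and between 43.4 and 75.7 after IL-4c (-0.12 ± 0.24, adjusted p = 0.725). The difference between the genotypes in the response was not called for either receptor (0.91 ± 0.47, adjusted p = 0.388 for Tnfrsf11a, and 0.64 ± 0.35, adjusted p = 0.406 for Fas). The Fas call in Rα+/+ mice was lost without mouse 1, 2, 6 or 7, where the change lay between -0.58 and -0.80 and the adjusted p between 0.0588 and 0.138, and with a single floor of 56.3 for all mice (-0.23, adjusted p = 0.250). Tnfrsf14, the receptor HVEM, was detected in all 11 mice, between 180.0 and 261, and was not called in any comparison before rescaling.

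Of 7 genes grouped as adaptors and ubiquitin ligases that act next to these receptors, Traf1 was at the floor in all mice and 6 were detected. Trafd1 was placed in this group by its symbol. After IL-4c, Birc3 and Trafd1 fell in both genotypes and Birc2 fell in RαTd/Td mice. Tnfaip3, Traf2 and Traf6 were not called in either. Under some alternatives Traf6 was called lower in each genotype, and Tnfaip3 in Rα+/+ mice.

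Birc3 encodes cIAP2, a ubiquitin ligase of the TNF receptor complex that restrains caspase-8 activation and is itself induced by NF-kB. It was at 328 and 316 normalized counts in PBS-treated Rα+/+, 503 and 535 in PBS-treated RαTd/Td, 179.8, 187 and 190.3 in IL-4c-treated Rα+/+, and 214, 266, 336 and 278 in IL-4c-treated RαTd/Td mice. Within each genotype every IL-4c-treated mouse was below every PBS-treated mouse, and within each treatment every RαTd/Td mouse was above every Rα+/+ mouse. IL-4c lowered Birc3 by -0.79 ± 0.16 on the log2 scale in Rα+/+ mice (adjusted p = 0.00354) and by -0.94 ± 0.16 in RαTd/Td mice (adjusted p = 0.000876).

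Trafd1 encodes a zinc finger protein that dampens Toll-like receptor signalling. It was at 259 and 160.5 in PBS-treated Rα+/+, 361 and 323 in PBS-treated RαTd/Td, 136, 116 and 115 in IL-4c-treated Rα+/+, and 149, 149, 172 and 199.7 in IL-4c-treated RαTd/Td mice. The groups did not overlap in either genotype, though the PBS-treated Rα+/+ mice lay far apart. The change was -0.73 ± 0.21 in Rα+/+ mice (adjusted p = 0.0158) and -1.03 ± 0.20 in RαTd/Td mice (adjusted p = 0.00191). Without mouse 1 the change in Rα+/+ mice was -0.39 and was not called (adjusted p = 0.1496), and with centring it was -0.44 (adjusted p = 0.0598).

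Birc2, which encodes cIAP1, the close relative of cIAP2, was at 183 and 223 in PBS-treated RαTd/Td mice and between 119 and 153 after IL-4c, a change of -0.62 ± 0.17 (adjusted p = 0.0127). This call was lost without mouse 4 (-0.48, adjusted p = 0.121) and with both rescalings (-0.36 with centring, adjusted p = 0.123, and -0.33 with quantile normalization, adjusted p = 0.162). In Rα+/+ mice it changed by -0.26 ± 0.18 (adjusted p = 0.262), and the difference between the genotypes was -0.36 ± 0.25 (adjusted p = 0.522). Tnfaip3 encodes A20, the ubiquitin-editing enzyme that ends NF-kB signalling. Its changes were -0.93 ± 0.35 (adjusted p = 0.0554) in Rα+/+ and -0.44 ± 0.33 (adjusted p = 0.305) in RαTd/Td mice. Traf6, the adaptor shared by RANK and the Toll-like receptors, changed by -0.60 ± 0.27 (adjusted p = 0.0951) and -0.47 ± 0.26 (adjusted p = 0.155). Traf2, the adaptor of both TNF receptors, changed by -0.02 ± 0.18 and -0.16 ± 0.17.

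**Figure D2:**
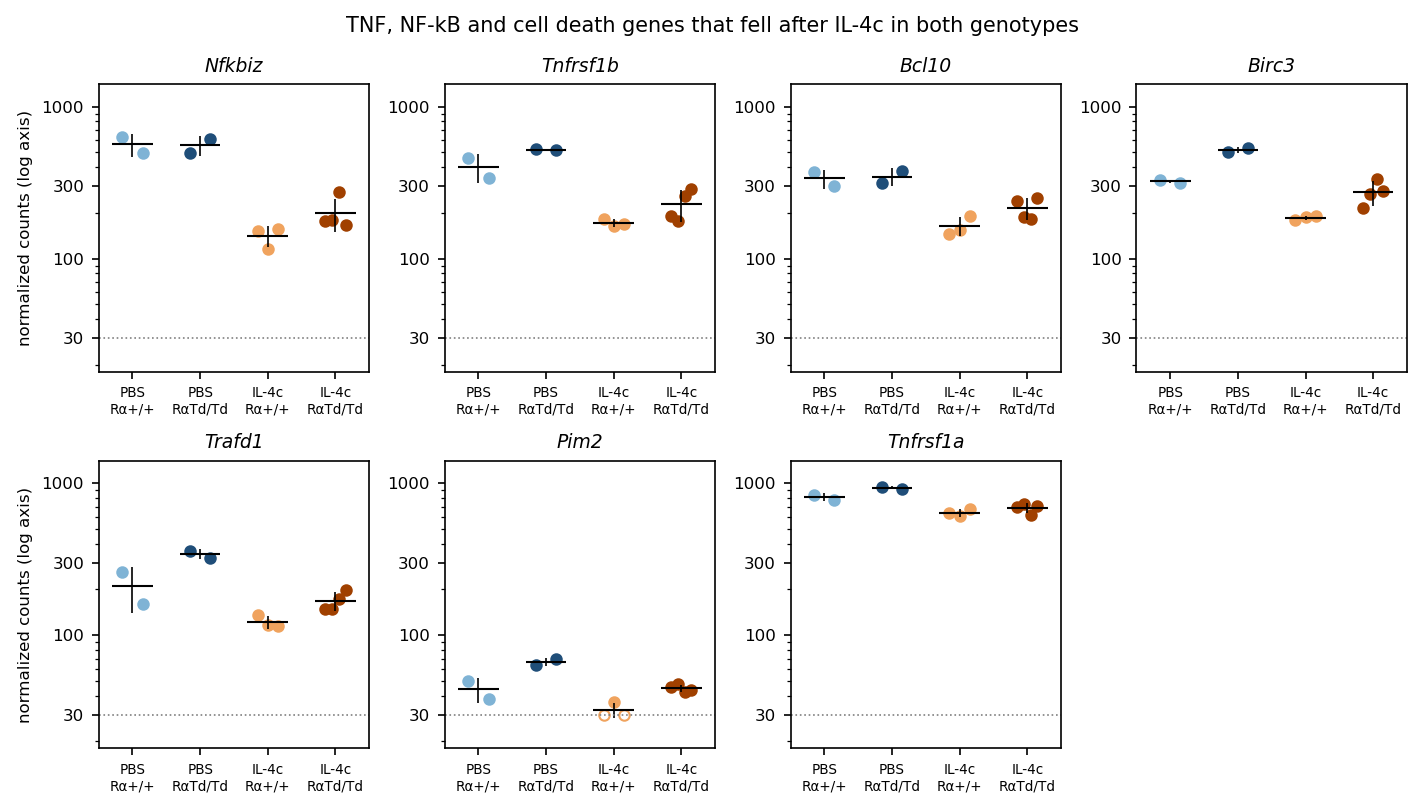
Normalized counts (log axis) in each mouse for the 7 genes that fell after IL-4c in both genotypes, with the group mean (horizontal bar) and SD (vertical bar); open points on the dotted line are at the floor of 30. Each panel steps down from the PBS-treated to the IL-4c-treated mice of the same genotype. For Birc3, Pim2 and Trafd1, every RαTd/Td mouse is above every Rα+/+ mouse under both treatments.

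The 250 bases before the start of 4 of these genes are shown from RefSeq (build GRCm38.p6), as examples from the 7 genes that fell after IL-4c in both genotypes. They are the genes for both TNF receptors, Bcl10 and Birc3. Of the 7 genes, 6 have an entry in the promoter table used here, and 3 of these 6 hold any of the motifs below, since Pim2 and Trafd1, which are not shown, hold none. Each is written 5′ to 3′ on the strand of its gene, and capitals mark a match on either strand to the κB motif, bound by NF-kB, or to TTCNNNGAA or TTCNNNNGAA, the palindromes bound by STAT factors, the second of which has the spacing preferred by STAT6.
Tnfrsf1a (chr6:125349473-125349722, + strand): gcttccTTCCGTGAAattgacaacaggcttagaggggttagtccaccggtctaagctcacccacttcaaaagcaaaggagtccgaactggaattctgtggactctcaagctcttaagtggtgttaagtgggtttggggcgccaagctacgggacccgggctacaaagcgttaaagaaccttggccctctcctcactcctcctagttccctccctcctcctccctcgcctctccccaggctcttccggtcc
Tnfrsf1b (chr4:145246871-145247120, - strand): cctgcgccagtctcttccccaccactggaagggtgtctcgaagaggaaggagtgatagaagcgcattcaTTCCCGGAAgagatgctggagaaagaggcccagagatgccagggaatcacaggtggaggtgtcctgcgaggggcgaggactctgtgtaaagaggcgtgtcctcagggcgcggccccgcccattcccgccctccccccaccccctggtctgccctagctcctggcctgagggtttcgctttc
Bcl10 (chr3:145924012-145924261, + strand): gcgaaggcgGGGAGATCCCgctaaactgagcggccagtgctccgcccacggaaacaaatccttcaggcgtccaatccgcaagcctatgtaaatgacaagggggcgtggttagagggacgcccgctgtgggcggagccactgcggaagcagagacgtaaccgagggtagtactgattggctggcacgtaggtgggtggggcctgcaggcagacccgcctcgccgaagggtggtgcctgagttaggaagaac
Birc3 (chr9:7873171-7873420, - strand): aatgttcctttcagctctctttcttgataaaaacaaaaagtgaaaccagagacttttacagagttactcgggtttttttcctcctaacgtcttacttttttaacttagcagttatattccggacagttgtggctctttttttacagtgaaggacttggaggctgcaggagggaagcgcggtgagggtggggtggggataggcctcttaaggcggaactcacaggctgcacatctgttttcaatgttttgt
The windows before Tnfrsf1a and Tnfrsf1b hold 1 match each to TTCNNNGAA, which starts 244 and 181 bases before the gene, the window before Bcl10 holds 1 κB match 241 bases before it, and the window before Birc3 holds none of the 3. Of 32851 such windows in the table, 3.90% hold the κB motif, 7.02% TTCNNNGAA and 5.85% TTCNNNNGAA. Of the 35 genes, 29 have an entry, of which 5 hold the κB motif (Bcl10, Nfkbie, Tnfaip3, Tnfrsf8 and Tnfrsf9), 6 hold TTCNNNGAA (Bcl6, Fas, Tnfaip6, Tnfrsf1a, Tnfrsf1b and Tnfrsf9) and 1 holds TTCNNNNGAA (Tnfaip3). A match is a stretch of letters and was not tested as a binding site.

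Among the genes that act at the IkB kinases and NF-kB itself, Nfkbiz and Bcl10 fell in both genotypes, Ikbke fell in Rα+/+ mice and Nfkb1 fell in RαTd/Td mice. All of these had log2 changes below 0 after IL-4c in both genotypes, as most genes did. Of all 445 genes, 35.7% and 36.0% were above 0. Nfkbie, the other detected gene of this group, was above the floor in PBS-treated mice alone, so its change could only be below 0.

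Nfkbiz encodes IkBζ, an atypical nuclear IkB protein that is induced by Toll-like receptor and IL-1 signals and is needed for some NF-kB targets such as Il6. It was at 634 and 495 normalized counts in PBS-treated Rα+/+, 499 and 614 in PBS-treated RαTd/Td, 152, 116 and 157 in IL-4c-treated Rα+/+, and 178, 179.8, 273 and 166 in IL-4c-treated RαTd/Td mice. All PBS-treated mice were above all IL-4c-treated mice, and mouse 11 stood above the other IL-4c-treated RαTd/Td mice. The change was -1.99 ± 0.23 in Rα+/+ mice (3.96-fold lower, adjusted p = 0.000136) and -1.50 ± 0.22 in RαTd/Td mice (2.83-fold lower, adjusted p = 0.000458), the largest fall of any of the 25 genes in RαTd/Td and in Rα+/+ mice. The difference between the genotypes in this response was 0.49 ± 0.32 and was not called (adjusted p = 0.5001).

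Bcl10 encodes the adaptor that links CARD proteins to MALT1 and the IkB kinases. Its values were 371 and 303 in PBS-treated Rα+/+, 314 and 379 in PBS-treated RαTd/Td, 145, 155 and 190.3 in IL-4c-treated Rα+/+, and 239, 188, 183 and 251 in IL-4c-treated RαTd/Td mice. No IL-4c-treated mouse reached the level of a PBS-treated mouse. The change was -1.04 ± 0.19 in Rα+/+ mice (adjusted p = 0.00157) and -0.69 ± 0.18 in RαTd/Td mice (adjusted p = 0.00965), of which the second was lost without mouse 4 (-0.56, adjusted p = 0.0994) and with quantile normalization (-0.37, adjusted p = 0.0605).

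Ikbke encodes IKKε, a kinase of the interferon response. In Rα+/+ mice it went from 219 and 206 after PBS to 101, 93.4 and 80.1 after IL-4c (-1.21 ± 0.34, adjusted p = 0.0144). In RαTd/Td mice it went from 226 and 218 to 88.6, 87.8, 176 and 195, so that mice 11 and 12 stayed closer to the PBS-treated mice than mice 9 and 10 did (-0.79 ± 0.32, adjusted p = 0.0626). The difference between the genotypes was 0.42 ± 0.46 (adjusted p = 0.701). The call in Rα+/+ mice was lost without mouse 1 (-1.17, adjusted p = 0.0977) or mouse 2 (-1.26, adjusted p = 0.0564). Nfkb1, which encodes the p105 precursor of the p50 subunit, fell by -0.41 ± 0.13 in RαTd/Td mice (adjusted p = 0.0223) and changed by -0.25 ± 0.14 in Rα+/+ mice (adjusted p = 0.155), with a difference of -0.16 ± 0.19 (adjusted p = 0.719). The Nfkb1 call was lost without mouse 4 (-0.30, adjusted p = 0.193) and with both rescalings (-0.15 with centring, adjusted p = 0.370, and -0.11 with quantile normalization, adjusted p = 0.381). Nfkbie, which encodes IkBε, an NF-kB-induced inhibitor that holds NF-kB in the cytoplasm, was at 53.1 and 45.0 in PBS-treated Rα+/+ mice, at 69.1 and the floor in PBS-treated RαTd/Td mice, and at the floor in all 7 IL-4c-treated mice. It was not called (adjusted p = 0.0594 in Rα+/+ and 0.0763 in RαTd/Td mice), and no fold is given against groups at the floor. As it was above the floor in PBS-treated mice alone, its values could show a fall only. It was called lower in Rα+/+ mice with quantile normalization, with the compared groups alone, with the methods' t-test and without mouse 3 or 4, and in RαTd/Td mice without mouse 4.

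**Figure D3:**
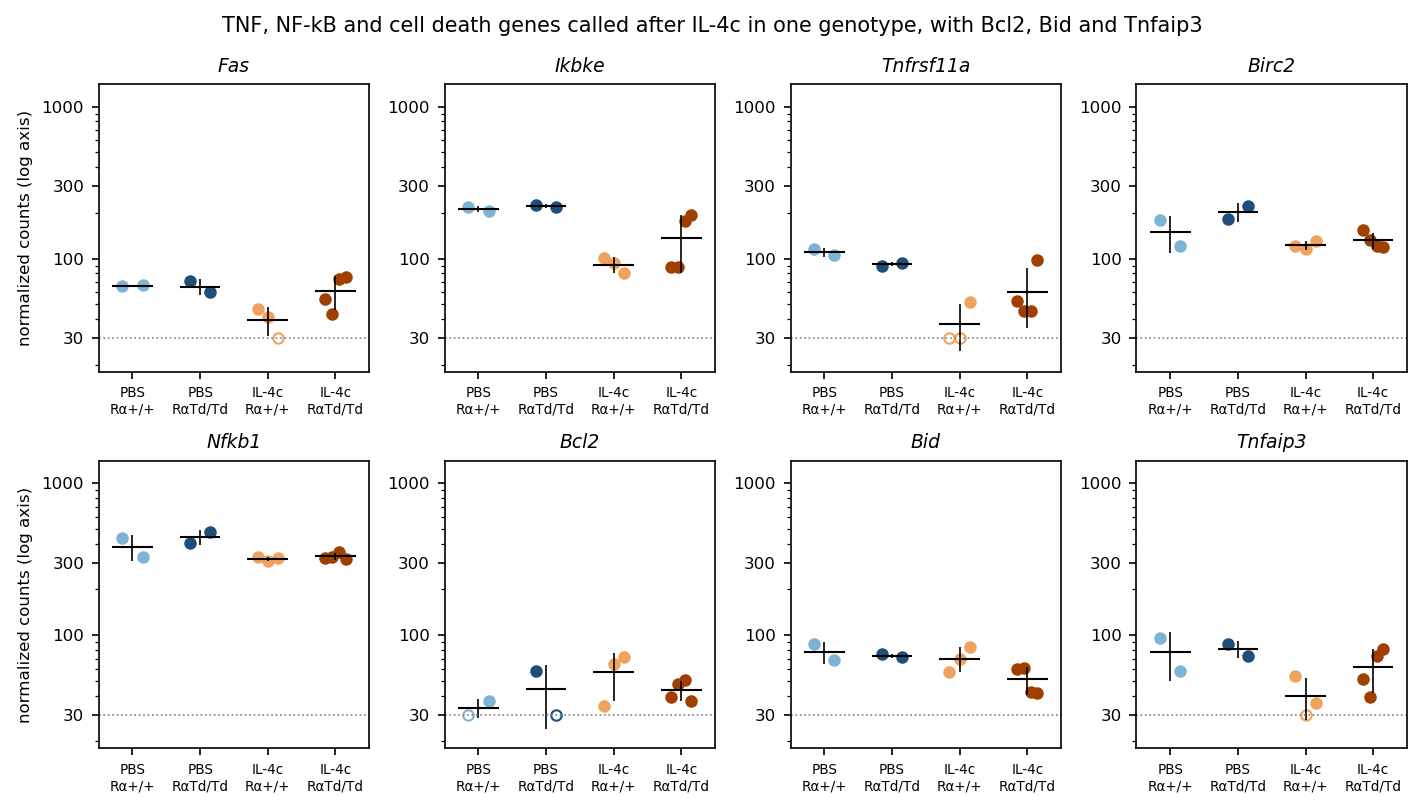
Normalized counts (log axis) in each mouse for the 5 genes called after IL-4c in one genotype, and for Bcl2, Bid and Tnfaip3, with the group mean (horizontal bar) and SD (vertical bar); open points on the dotted line are at the floor of 30. Fas, Ikbke and Tnfrsf11a spread widely among the IL-4c-treated RαTd/Td mice, and most Bcl2 values lie close to the floor.

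Ripk2, the kinase of the NOD receptors, was between 78.5 and 137 and was not called before rescaling. Map3k4, a stress kinase upstream of p38 and JNK, was at or near the floor in all mice, between 30 and 41.3. Map3k14, the kinase NIK of the alternative NF-kB pathway, was at the floor in all 11 mice.

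Among cell death genes, no change was called for Casp1, Bid or Bcl2 over all 11 mice before rescaling. Casp1, the inflammatory caspase of the inflammasome, lay between 225 and 355 in all mice and was not called, with changes of -0.04 ± 0.15 and -0.28 ± 0.14. Under some alternatives, among them the compared groups alone and the methods' t-test, it was called lower in RαTd/Td mice. Bid, the BH3-only protein that carries the caspase-8 signal to mitochondria, changed by -0.15 ± 0.22 (adjusted p = 0.629) in Rα+/+ mice and by -0.53 ± 0.21 (adjusted p = 0.0604) in RαTd/Td mice.

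Bcl2 encodes the founding member of the survival side of its family. It was at the floor and 36.8 in PBS-treated Rα+/+, 57.9 and the floor in PBS-treated RαTd/Td, 34.4, 64.3 and 71.9 in IL-4c-treated Rα+/+, and 39.0, 47.5, 50.7 and 36.7 in IL-4c-treated RαTd/Td mice. The groups overlapped in each of the 4 comparisons of 2 groups. These values rest on 30 to 62 counts per mouse where the gene was above the floor. The change after IL-4c was 0.69 ± 0.34 (adjusted p = 0.124) in Rα+/+ and 0.05 ± 0.32 (adjusted p = 0.942) in RαTd/Td mice, and the first of these was called as a rise with either rescaling. The difference between RαTd/Td and Rα+/+ mice after IL-4c was -0.32 (95% confidence interval -0.97 to 0.32, adjusted p = 0.555), and none of the alternatives in which it was tested led to a call.

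Pim2 encodes a serine/threonine kinase that promotes survival downstream of cytokine receptors and STAT factors. It was at 49.8 and 38.25 in PBS-treated Rα+/+, 63.5 and 69.5 in PBS-treated RαTd/Td, the floor, 36.4 and the floor in IL-4c-treated Rα+/+, and 45.7, 47.5, 42.0 and 43.6 in IL-4c-treated RαTd/Td mice. Within each treatment every RαTd/Td mouse was above every Rα+/+ mouse, and within each genotype every IL-4c-treated mouse was below every PBS-treated mouse. All values above the floor rest on 30 to 51 counts. The change after IL-4c was -0.44 ± 0.14 in Rα+/+ mice (adjusted p = 0.0283) and -0.56 ± 0.13 in RαTd/Td mice (adjusted p = 0.00642). The first call was lost without mouse 1 (-0.25, adjusted p = 0.186), mouse 5 (-0.39, adjusted p = 0.0826) or mouse 7 (-0.39, adjusted p = 0.0856), and with a single floor of 56.3 for all mice all Rα+/+ values are at that floor and the change is 0. The second was lost without mouse 4 (-0.50, adjusted p = 0.0617), and both were lost with centring (-0.14, adjusted p = 0.488, and -0.30, adjusted p = 0.119) and quantile normalization (-0.15, adjusted p = 0.611, and -0.20, adjusted p = 0.486).

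The rule also took in 3 genes by their first letters. Tnfaip6, a secreted hyaluronan-binding protein, was at the floor in all mice. Bcl6, a transcriptional repressor, was above the floor in 5 of 11 mice, at up to 69.5. Tnfaip8, a TNF-induced gene, was between 804 and 1213 in all mice. Neither Bcl6 nor Tnfaip8 was called in any comparison over all 11 mice.

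The comparison of RαTd/Td with Rα+/+ mice asks whether these genes depend on RELMα at rest. After PBS, 2 of the 25 genes were called, and both were higher in RαTd/Td mice, beside 8.09% of all 445 genes called higher and 1.57% called lower. This share, 8.0%, was near the background. Birc3 was higher by 0.69 ± 0.18 on the log2 scale (1.61-fold, adjusted p = 0.0436) and Pim2 by 0.59 ± 0.15 (1.51-fold, adjusted p = 0.0436). The median over the 25 genes was 0.21, beside 0.10 over all genes. All RαTd/Td mice were above all Rα+/+ mice for 9 of the 25 genes (36.0%), beside 35.5% of all genes. Trafd1 had the largest difference of the 25 genes, at 0.74 ± 0.23, but was not called (adjusted p = 0.0788), nor was Birc2, at 0.46 ± 0.20 (adjusted p = 0.209). With 2 mice in each group, both calls were close to the threshold. Without mouse 1, Birc2, Casp1, Nfkb1, Pim2 and Trafd1 were called, all higher in RαTd/Td mice. Without mouse 3, the 2 genes called were Bcl6 and Nfkbie, 1 higher and 1 lower, both near the floor. Each of these fits has 1 mouse left in that group, with the spread taken from the others. The Birc3 call was lost without mouse 1, 2, 3, 4, 5, 6, 7 or 10 (differences between 0.64 and 0.73, adjusted p between 0.0677 and 0.215), and the Pim2 call without mouse 2, 3, 4, 5, 6, 7, 9, 10 or 11 (differences between 0.41 and 0.66, adjusted p between 0.0510 and 0.252). With centring the differences were 0.54 for Birc3 (adjusted p = 0.140) and 0.45 for Pim2 (adjusted p = 0.190), and with quantile normalization 0.38 (adjusted p = 0.232) and 0.46 (adjusted p = 0.309).

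The same comparison after IL-4c asks whether the loss of RELMα changes these genes in activated macrophages. With limma, 0 of the 25 genes were called, beside 2.7% of all 445 genes. At an unadjusted p under 0.05, 8 of the 25 genes (32.0%) differed, beside 21.8% of all genes: Bcl10, Birc3, Fas, Nfkbiz, Pim2, Tnfrsf11a and Trafd1 were higher and Bid was lower in RαTd/Td mice. Birc3 was higher by 0.54 ± 0.14 (1.45-fold, 95% confidence interval 0.23 to 0.85 on the log2 scale, adjusted p = 0.0818) and Pim2 by 0.47 ± 0.12 (1.38-fold, 95% confidence interval 0.20 to 0.73, adjusted p = 0.0818). All 4 RαTd/Td mice were above all 3 Rα+/+ mice for both genes, for Trafd1 (0.44 ± 0.17, adjusted p = 0.188) and for Nfkbiz (0.47 ± 0.19, adjusted p = 0.201). These 4 of 25 genes (16.0%) stand beside 16.4% of all genes, so the share was that of the background. Birc3 passed the threshold without mouse 9 (0.65, adjusted p = 0.0128). With a single floor of 56.3 for all mice the Pim2 difference was 0. Over the 25 genes the differences ran from -0.45 (Bid) to 0.65 (Tnfrsf11a), and 80.0% were above 0, beside 70.3% of all genes. The neutrophil or monocyte marker sum was also higher in 3 of the 4 RαTd/Td mice than in any Rα+/+ mouse, and its part in these differences was not tested.

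**Figure D4:**
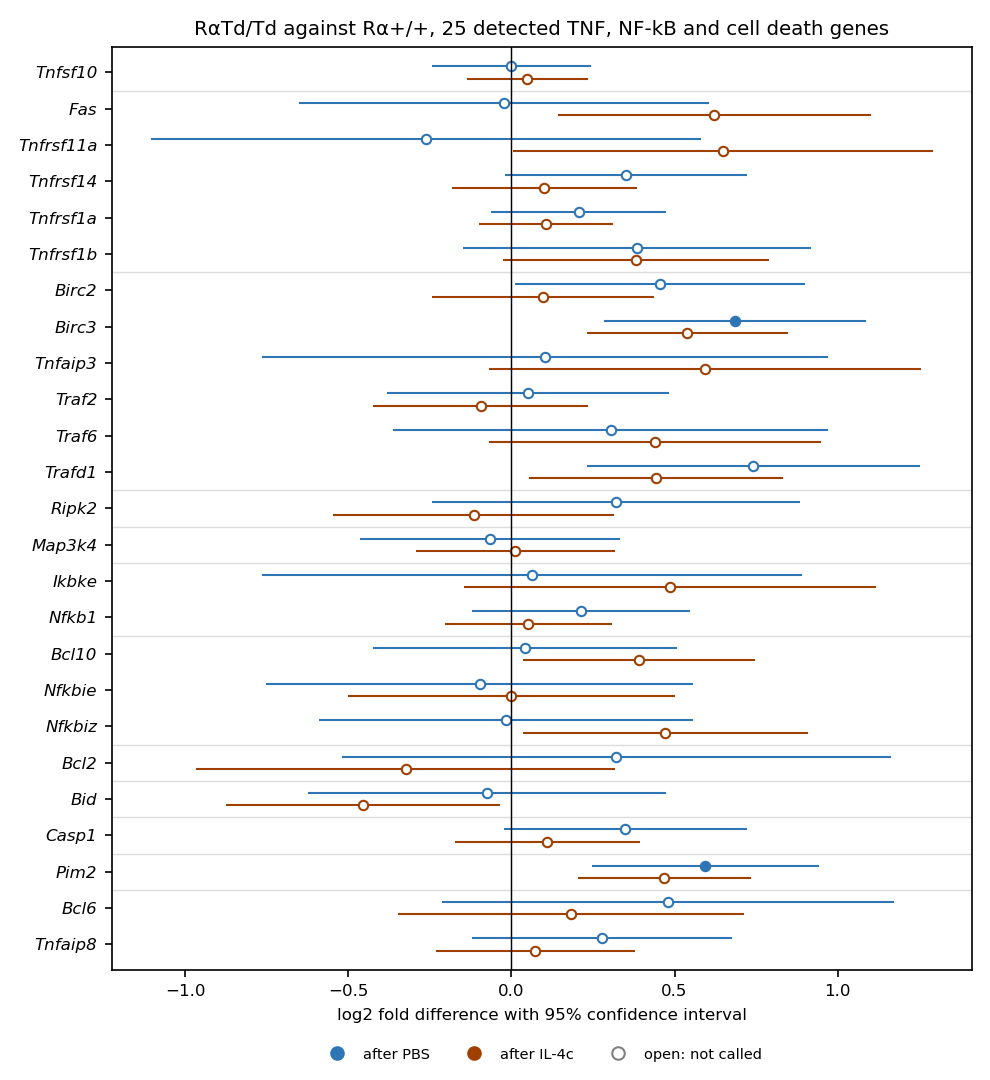
Log2 difference of RαTd/Td over Rα+/+ mice (x axis) for the 25 detected genes (y axis, grouped by role with grey lines) after PBS (blue) and after IL-4c (brown), with 95% confidence intervals from limma and filled points for called genes. Birc3 and Pim2 after PBS are the filled points, at 0.69 and 0.59, and their differences after IL-4c lie at 0.54 and 0.47 with open points.

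The response to IL-4c was then compared between the genotypes, as the difference of the 2 log2 changes. With limma, 0 of the 25 genes were called and 0 had an unadjusted p under 0.05, beside 2.02% and 15.5% of all 445 genes. The lowest adjusted p was that of Tnfrsf11a (0.388). The 95% confidence intervals were wide, for example -0.68 to 0.67 for Tnfrsf1b and -0.65 to 0.36 for Birc3, so that differences of that size are not excluded by these values.

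Other genes of the same pathways were taken from a list of 54 names, of which 14 were on the panel and 8 were detected. The ligand genes Lta, Ltb, Cd40lg and Cd70, the receptor gene Cd27 and the adaptor gene Fadd were at the floor in all mice. After IL-4c, 3 of the 8 fell in Rα+/+ mice and 4 in RαTd/Td mice, with none higher, and their median log2 changes were -0.17 and -0.41. With limma 0 were called between the genotypes after PBS or IL-4c, beside 9.66% and 2.70% of all genes. At limma's unadjusted p under 0.05, 2 of 8 (25.0%) and 1 of 8 (12.5%) differed, beside 22.9% and 21.8% of all genes. Nfkbia, which encodes IkBα, the main NF-kB-induced inhibitor, fell by -1.06 ± 0.16 (adjusted p = 0.000562) in Rα+/+ and by -0.48 ± 0.15 (adjusted p = 0.0246) in RαTd/Td mice, with a difference of 0.59 ± 0.22 (adjusted p = 0.220). Mapk14, which encodes the kinase p38α, fell by -0.43 ± 0.11 (adjusted p = 0.00796) and -0.52 ± 0.10 (adjusted p = 0.00196). Cd40, a TNF receptor superfamily gene, fell by -0.93 ± 0.20 in Rα+/+ mice (adjusted p = 0.00412) and changed by -0.04 ± 0.19 in RαTd/Td mice (adjusted p = 0.894), with a difference of 0.89 ± 0.27 that was not called (adjusted p = 0.138). Malt1, the partner of Bcl10, fell by -0.55 ± 0.14 in RαTd/Td mice (adjusted p = 0.00818), as did Map2k4, a kinase upstream of JNK, by -0.67 ± 0.18 (adjusted p = 0.0107). In Rα+/+ mice Malt1 changed by -0.20 ± 0.14 (adjusted p = 0.283) and Map2k4 by -0.09 ± 0.19 (adjusted p = 0.760). Their differences between the genotypes, -0.35 ± 0.20 and -0.58 ± 0.26, were not called (adjusted p = 0.443 and 0.319).

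Of 26 transcripts known to be raised by NF-kB, 25 were on the panel and 11 were detected, while Il1b, Il12b, Nos2 and Ptgs2 were among the 14 at the floor in all mice. After IL-4c, 6 of the 11 (54.5%) were called lower and 2 (18.2%) higher in each genotype. Over all genes, 32.4% were called lower and 13.9% higher in Rα+/+ mice, and 36.6% and 15.3% in RαTd/Td mice. The median log2 changes of the list were -0.94 and -0.48, beside -0.18 and -0.23 over all genes. The chemokine genes Ccl2, Ccl3, Cxcl1 and Cxcl2, the stress gene Ier3 and Nfkbia fell in both genotypes. Ccl3 fell by -2.47 ± 0.31 in Rα+/+ (adjusted p = 0.000176) and -2.55 ± 0.29 in RαTd/Td mice (adjusted p = 0.000135). The cytokine genes Il1a and Il6, which were at 30 in each of the 4 mice given PBS, were called higher. Being above the floor in IL-4c-treated mice alone, they could only be called higher. In PBS-treated RαTd/Td mice 3 and 4, 30 stands for any level below their lowest measured values, 56.1 and 56.3. Il1a in IL-4c-treated RαTd/Td mice lay near or below these in all but mouse 10, so whether it rose there cannot be told. Il6 was at 157, 177 and 204 in IL-4c-treated Rα+/+ and at 217, 194, 126 and 81.5 in IL-4c-treated RαTd/Td mice, and Il1a was at 113, 141 and 108 in the first and at 40.0, 68.2, 56.1 and 50.5 in the second. Il1a was the 1 gene of this list (9.09%, beside 2.70% of all genes) called between the genotypes after IL-4c, at -1.17 ± 0.17 (limma adjusted p = 0.00594). Both lists were chosen by what their genes are known to do, with earlier results of these data known.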

How the data were processed

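The authors lysed sorted macrophages and measured them on a Nanostring panel for myeloid innate immunity. The values they deposited are linear signal, in counts scaled by 4 housekeeping genes, and low values stand at 30. All 11 columns, 1 mouse each, were used, and the 14 control probes stayed out of the tests. A further IL-4c-treated Rα+/+ mouse, left out by the study, is not analysed here. According to the paper, its expression grouped with that of the PBS-treated mice, and it had less RELMα and fewer peritoneal cells. The paper proposes that IL-4c was not delivered effectively. The choice of the IL-4c-treated Rα+/+ mice thus rested in part on expression values, and its effect on the results was not tested. Between the floor and 1000, 100% of values per mouse were whole counts times 1 factor, within 0.1 counts, and dividing by it gave the depth. The lane of each mouse is 1 measurement, so depth and the number of mice limit precision.

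The 445 genes with a mean above 30 were fitted with limma 3.58.1 in R 4.3.3 on log2(value + 1), with 1 coefficient for each of 4 groups, 5 contrasts and Benjamini-Hochberg adjustment over all 445 genes. Intervals are 95% and tests two-sided. The fit was tested on simulated data. Alternatives were other filters, rescalings, added constants, floors, moderation, the methods' t-test and each mouse left out. Of the genes the rule found, 1 is not reported here, and it stayed in the fit. Values in every mouse were to be given for those called in 2 or more comparisons and for Birc3, Bcl2 and Pim2, which the paper's text names, and are also given for some others. The genes and lists were chosen with earlier results of these data known.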

Additional observations from a re-analysis of the deposited data

Results flagged for a closer look

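In the IL-4c-treated RαTd/Td group, the one group with 4 mice, 3 of 22 genes had a mouse whose distance from its nearest neighbour took up more of the group's range than Dixon's limit for 4 samples allows, which chance passes in about 1 of 20 groups. Casp1 was lowest in mouse 11, at 270.6 normalized counts, beside 288, 290.4 and 291 in the other mice (ratio 0.838). Nfkbiz was highest in mouse 11, at 272.7, beside 166, 178 and 179.8 (ratio 0.874). Tnfrsf11a was highest in mouse 12, at 98.69, beside 45.3, 45.5 and 52.4 (ratio 0.867).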

How the results depend on the processing

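Of 24 results for single genes, 9 kept their side of the threshold under every alternative run, and 0 reversed. The number of the 25 genes called after IL-4c in Rα+/+ mice was 10, but 6 with the methods' t-test after adjustment, and 5 to 12 when a mouse was left out (5 without mouse 1). In RαTd/Td mice it was 9, but 4 with quantile normalization, and 6 to 11 when a mouse was left out. For RαTd/Td against Rα+/+ after PBS it was 2. It was 0 with no filter, with centring, with quantile normalization, with the compared groups alone and with the methods' t-test after adjustment. It was 1 with a mean above 100, with values above 30 in every mouse, with a trend and robust moderation and with the methods' t-test unadjusted, 4 with limma's unadjusted p, and 0 to 5 when a mouse was left out (5 without mouse 1). After IL-4c it was 0, but 3 with the methods' t-test unadjusted and 8 with limma's unadjusted p, and 0 to 1 when a mouse was left out (1 without mouse 9). For the difference in response it was 0, but 1 (Pim2) with a single floor of 56.3. The causes were not tested. Tests on raw counts were not run, because the table holds normalized counts with a floor. No paired analysis was possible because the groups share no replicate number. Low genes such as Pim2, Bcl2 and Nfkbie are limited by the floor.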

Other observations

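Within the IL-4c-treated RαTd/Td group, mice 11 and 12 differed from mice 9 and 10 in several of the 25 genes. Tnfaip3 was at 73.3 and 81.5 in mice 11 and 12 and at 51.4 and 39.3 in mice 9 and 10. Fas was at 73.3 and 75.7 in the first pair and at 54.3 and 43.4 in the second, and Bid was at 42.0 and 41.3 beside 60.0 and 61.0. Other genes of the 25 did not separate these pairs, among them Tnfrsf11a, Bcl10 and Nfkbiz. For example, Nfkbiz was at 273 and 166 in mice 11 and 12 and at 178 and 179.8 in mice 9 and 10. The share of all genes that separate the pairs was not counted. The neutrophil or monocyte marker sum was 897 and 1372 in mice 11 and 12 and 521 and 464 in mice 9 and 10. These mice were set side by side after their values were seen, no test was made, and the part of the marker genes in these values was not tested.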
